A study of Mus musculus with 2 samples.

Results

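Single-exon intergenic loci are stretches of the genome outside annotated genes where the deposited transcript models hold 1 exon and a gene class of intergenic. Such models on the placed chromosomes were taken from either library, and models on the same strand that shared 1 base or more were merged. The 1969 models, of 165250 mouse transcript models with reads in the series, gave 1729 loci, 1092 with reads in replicate 1 and 870 with reads in replicate 2. All unannotated models together gave 12154 loci. Intergenic is the class in the deposited files: 359 of the loci (20.8%) shared a base with a GENCODE M21 gene, and 279 (16.1%) overlapped a same-strand gene of RefSeq, a second annotation. The libraries are long-read sequencing of 2 µg of total RNA from the gastrocnemius, a calf muscle, of male B6CASTF1/J mice, an F1 hybrid strain, aged 10 days. The labels give 1 group of 2 biological replicates from separate biosamples, with no treatment and no control, so the only comparison is of replicate 1 with replicate 2.

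Transcription does not stop sharply at the ends of annotated genes. RNA polymerase II continues past the site where the transcript is cut and polyadenylated, a gene can use a cleavage site farther out than the annotated one, and many mammalian promoters, above all those rich in CpG, also start transcripts on the opposite strand, away from the gene. Copies of messenger RNAs that were inserted back into the genome, the processed pseudogenes, add stretches of exon sequence without introns, often annotated only over the old reading frame.

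The sequences below stand at the ends of genes next to which some of the loci named in this report lay. Each of the first set is the last 30 bases of a GENCODE M21 transcript (mm10, 5′ to 3′ on the strand of the gene), with a polyadenylation signal hexamer (AATAAA or ATTAAA) in capitals. They are shown because loci on the same strand began at or beyond these ends. The loci beyond Srl, Musk, H19 and Trdn were named as neighbours of listed genes and had reads in 1 library each. In the 4 processed pseudogenes at the end of the set, capitals mark a final stop triplet.
Rtl1, chr12:109589193-109589222 minus: tgccccatgAATAAAgagaagaaaagatta
Slit1, chr19:41600257-41600286 minus: taggcgcttAATAAAtatttgttgaatgaa
Srl, chr16:4480216-4480245 minus: agaacgtctcAATAAAgttccaatctctct
Musk, chr4:58374274-58374303 plus: ttttgaagAATAAAaagtggaaagcctgca
H19, chr7:142575529-142575558 minus: ggtccatcAATAAAtacagttacagtcatt
Eef1a2, chr2:181147653-181147682 minus: gtgcctactgctggggccctgtttctcaaa
Dyrk1b, chr7:28187265-28187294 plus: ctgtaccccccagtaaaaagctttctcaca
Vash1, chr12:86692062-86692091 plus: agccaagcccctaactttgggccaagaagc
Trdn, chr10:33476680-33476709 plus: atgaatagttaattttttattttaaatttc
Gm8116, chr9:78820638-78820667 minus: gttttgtttgtggtccggaagccacaaTAA
Gm6969, chr12:24638669-24638698 minus: tacatggcctcgcagcccagaaacaaaTGA
Got2-ps1, chr5:138364260-138364289 minus: gcccatgccattcaccaggtcaccaagTAA
Gm10182, chr9:22321105-22321134 minus: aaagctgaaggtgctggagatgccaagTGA

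The second set holds promoter windows of 300 bases from RefSeq (GRCm38.p6, 250 bases before to 50 after the start of the gene, on its strand). They are shown because the 5′ end of a leading locus on the other strand lay inside them. Capitals mark GGGCGG, the Sp1 motif, searched on both strands, and the last 2 of its 5 matches at Qser1 overlap.
Qser1, chr2:104816647-104816946 minus: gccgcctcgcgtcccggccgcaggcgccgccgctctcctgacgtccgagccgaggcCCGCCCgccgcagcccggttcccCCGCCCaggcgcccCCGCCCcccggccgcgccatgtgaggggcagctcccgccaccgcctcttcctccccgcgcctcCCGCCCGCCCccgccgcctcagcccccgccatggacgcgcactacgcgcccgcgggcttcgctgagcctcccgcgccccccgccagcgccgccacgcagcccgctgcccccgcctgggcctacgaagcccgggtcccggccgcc
Tbc1d22a, chr15:86214209-86214508 plus: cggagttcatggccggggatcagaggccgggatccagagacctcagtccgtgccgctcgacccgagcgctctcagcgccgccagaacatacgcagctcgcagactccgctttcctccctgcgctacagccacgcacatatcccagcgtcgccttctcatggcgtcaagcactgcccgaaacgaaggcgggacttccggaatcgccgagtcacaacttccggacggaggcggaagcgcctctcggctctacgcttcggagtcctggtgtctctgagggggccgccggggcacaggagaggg

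Replicate 1 held 1145490 mouse reads and replicate 2 held 941841, with spike-in RNA left out. The 6 skeletal muscle markers examined lay between 8871 and 91770 CPM (reads per 1000000 mouse reads) in each library. Of 4 markers of liver and brain, Alb, Snap25 and Syt1 had 0 reads in both libraries and Apoa1 had 0 and 1. Of 4 fibroblast markers, Col1a1, Col3a1 and Pdgfra were lower in replicate 2 and Dcn was higher, at 512 CPM in replicate 1 and 611 CPM in replicate 2. The blood markers Hba-a1 (184 and 451 CPM) and Hbb-bs (133 and 223 CPM) were higher in replicate 2. The endothelial markers Pecam1, Cdh5 and Kdr lay between 20.2 and 56.7 CPM. The part of other cell types in the loci was not tested. In replicate 1, 1 read equalled 0.873 CPM, and a count of 0 allowed up to 2.62 CPM, the level of 3 reads. The same values for replicate 2 were 1.06 and 3.19 CPM. Intervals below are 95% Wilson intervals, and like the limits they cover counting error only. The document of the pipeline is cited in version 3.1 for replicate 1 and version 3.0 for replicate 2, so the version and the animal cannot be told apart.

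The loci were many, short of reads and mostly seen in 1 library. They took 2212 of the mouse reads of replicate 1 and 1751 of those of replicate 2, which is 0.193% (0.185 to 0.201) and 0.186% (0.177 to 0.195), a mean of 0.190% ± 0.00509 (SD, n = 2). Fisher's exact test (two-sided) gave p = 0.237 for the difference between the libraries. Of the 1729 loci, 1334 (77.2%) rested on 1 read over both libraries, 99 on 5 or more and 13 on 20 or more. A single locus beside Dyrk1b held 632 reads, 15.9% of all reads of the class, and the 20 loci of most reads held 33.4%. Without it the class made up 0.159% ± 0.00178 of mouse reads (SD, n = 2). The strands were even, with 863 loci on the plus and 866 on the minus strand. Chromosome 11 had the most loci, 143, and the mitochondrial chromosome had 1 locus of 1 read.

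In both libraries, 233 loci had reads, which is 13.5% of the loci (11.9 to 15.2), and these held 53.8% of the reads. Recurrence followed the number of reads. Of the loci with 1 read in replicate 1, 12.7% (10.6 to 15.04) had reads in replicate 2, and of those with 1 read in replicate 2, 17.3% (14.7 to 20.3) had reads in replicate 1. Of the loci with 5 or more reads, 81.3% of those of replicate 1 (39 of 48, interval 68.1 to 89.8) and 75% of those of replicate 2 (30 of 40, interval 59.8 to 85.8) were found in the other library. Thinning replicate 1 to the depth of replicate 2 would leave an expected 933 of its 1092 loci, against 870 found in replicate 2.

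**Figure D1:**
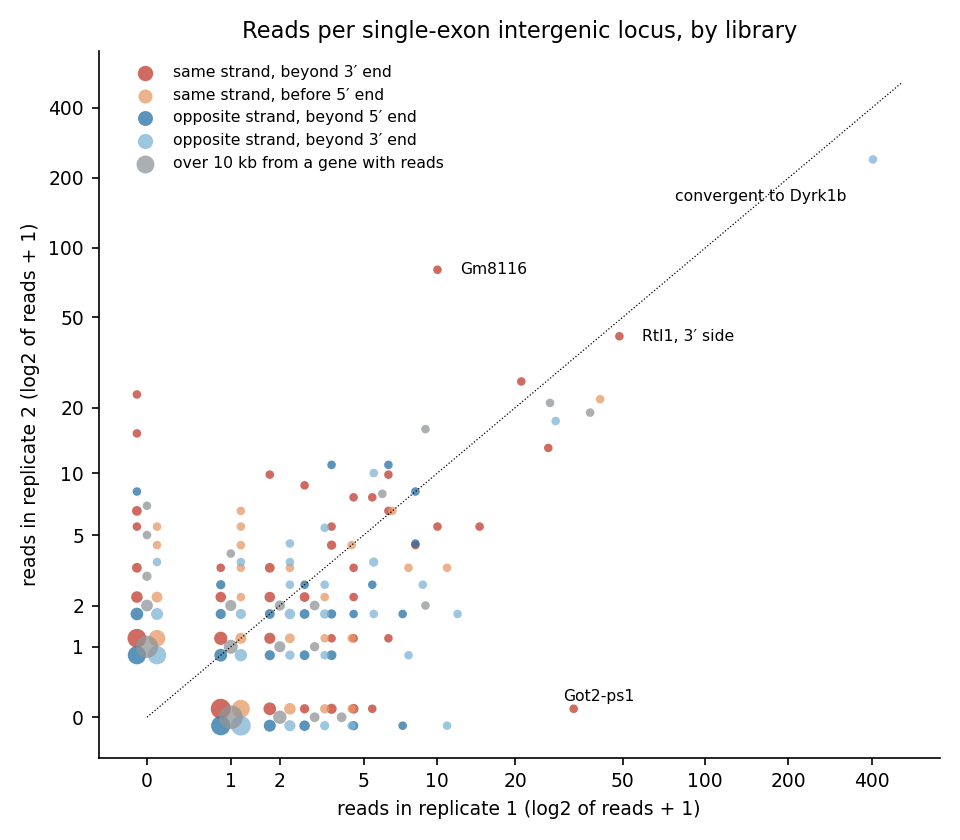
Reads of each locus in replicate 1 (x axis) and replicate 2 (y axis), both as log2 of reads + 1, coloured by the position of the locus relative to the nearest gene with reads. Larger dots hold more loci with the same pair of counts, the colours are set slightly apart for visibility, and the dotted line marks equal reads. Most loci sit at 1 read in 1 library, and the locus convergent to Dyrk1b stands alone at 371 and 261 reads.

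The share in both libraries stood beside higher values in single-exon antisense loci, which lie opposite annotated genes. Of the 9297 single-exon antisense loci 23.4% (22.5 to 24.2) were in both libraries, and of those with 5 or more reads in replicate 1, 92.7% (89.8 to 94.9) were in replicate 2. Of the 310 spliced intergenic loci 15.2% (11.6 to 19.6) were in both, an interval that overlaps that of the single-exon ones. These are shares side by side, with no test of the difference. The median model length was 1025 nt for single-exon intergenic models, 1521 nt for spliced intergenic and 1666 nt for single-exon antisense models.

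**Figure D2:**
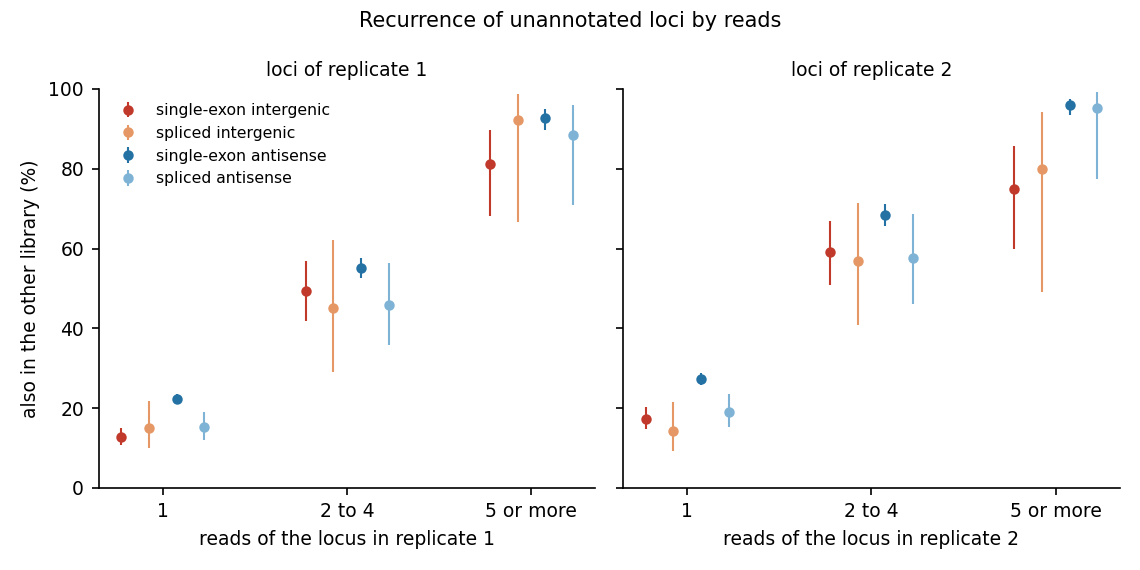
Share of loci also found in the other library (y axis, %, bars are 95% Wilson intervals) against the reads of the locus in replicate 1 (left) and in replicate 2 (right), for 4 classes of unannotated loci. Over the 3 read classes drawn the share goes up in each class of loci, and single-exon intergenic loci with 5 or more reads reach 81.3% and 75%.

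Models of other classes covered some of the loci, in the other library and in the same one. Of the 859 loci with reads in replicate 1 alone, 52 (6.05%, 4.65 to 7.85) were covered in replicate 2 over at least 50% of their bases by exons of same-strand models of another class. Of the 637 loci of replicate 2 alone, 42 (6.59%, 4.91 to 8.79) were so covered in replicate 1. Most of these models belonged to annotated genes (32 and 23 loci) or to the single-exon antisense class (11 and 14 loci). Within the same library, 59 of 1092 loci of replicate 1 (5.40%) and 39 of 870 of replicate 2 (4.48%) were so covered. There, models of annotated genes covered 41 and 24 loci, and single-exon antisense models 0 and 1. Cover by another class was thus not in itself a label that changed between the libraries. With models of any class counted as seen, 327 loci (18.9%, 17.1 to 20.8) were in both libraries, and of the 99 loci with 5 or more reads, 89 in place of 80. A count of 0 in this class is therefore not always an absence of reads on that strand.

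The ends of loci in both libraries were compared between their models. The deposited models give 1 start and 1 end each, whatever their reads. Among the 233 loci in both libraries the 3′ end was the same base in 109 (46.8%) and the median distance between the libraries was 1 base. The 5′ end was the same base in 59 (25.3%), with a median distance of 64 bases. Among the 170 of these loci that touched no gene with reads, the shares were 46.5% at the 3′ end and 14.7% at the 5′ end. Among the 63 that touched one, they were 47.6% at the 3′ end and 54.0% at the 5′ end. Part of the model ends fell on annotated bases. In replicate 1 and replicate 2, 17.2% and 16.0% of the model 5′ ends lay exactly on an end of an annotated transcript, against 3.74% and 4.47% of the 3′ ends.

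Length varied from 1 to 8151 bases, with a median of 997 and quartiles of 205 and 2051. Loci under 200 bases numbered 425 (24.6%), and 35 of them (8.24%) were in both libraries. Of the 41 loci of 5000 bases or more, 16 (39.0%) were in both. The median was 1779 bases for loci in both libraries and 834 bases for loci of 1 read. A merged locus spans all its models, so a locus seen more often can also be longer. The longest, chr7:36666757-36674907 on the plus strand, had 1 read in replicate 1 and 0 in replicate 2 and lay 23211 bases before the 5′ end of Tshz3.

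Most loci lay near genes. Gene ends were those of GENCODE M21, since the gene extents in the deposited annotation equal them for 32.3% and 32.8% of the 15631 genes with reads in replicate 1 and replicate 2. Within 10 kb of a gene with reads lay 1116 loci (64.5%, 62.3 to 66.8). By the nearest gene, 349 loci (20.2%, 18.4 to 22.1) were on its strand beyond its 3′ end, and 187 (10.8%, 9.44 to 12.4) on its strand before its 5′ end. On the opposite strand, 292 (16.9%, 15.2 to 18.7) lay beyond the 5′ end, a divergent arrangement, and 288 (16.7%, 14.98 to 18.5) beyond the 3′ end, a convergent one. The remaining 613 loci (35.5%, 33.2 to 37.7) were farther away.

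The positions shifted with recurrence and reads. Loci in both libraries lay beyond the 3′ end on the same strand in 27.5% (22.1 to 33.5), and loci with 5 or more reads in 38.4% (29.4 to 48.2), against 18.1% (16.1 to 20.2) of loci with 1 read. The share over 10 kb from a gene with reads was 23.6% (18.6 to 29.5) for loci in both libraries and 11.1% (6.32 to 18.8) for loci with 5 or more reads, against 38.8% (36.3 to 41.5) of loci with 1 read. Divergent loci made up 20.6% of those in both libraries, against 15.7% of loci with 1 read, and these intervals overlap (15.9 to 26.3 and 13.8 to 17.7).

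Few loci lay under 500 bases from a gene without touching it. Among loci on the same strand beyond the 3′ end, 107 shared a base with the gene, 6 lay less than 500 bases away without contact and 45 lay between 500 and 1000 bases away. Among divergent loci the numbers were 127, 3 and 25. Over all annotated genes 359 loci shared a base with a gene, and 364 of the 366 contacts were of exactly 1 base, the annotated last or first base of the gene. How ends came to lie on the annotated base was not tested.

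**Figure D3:**
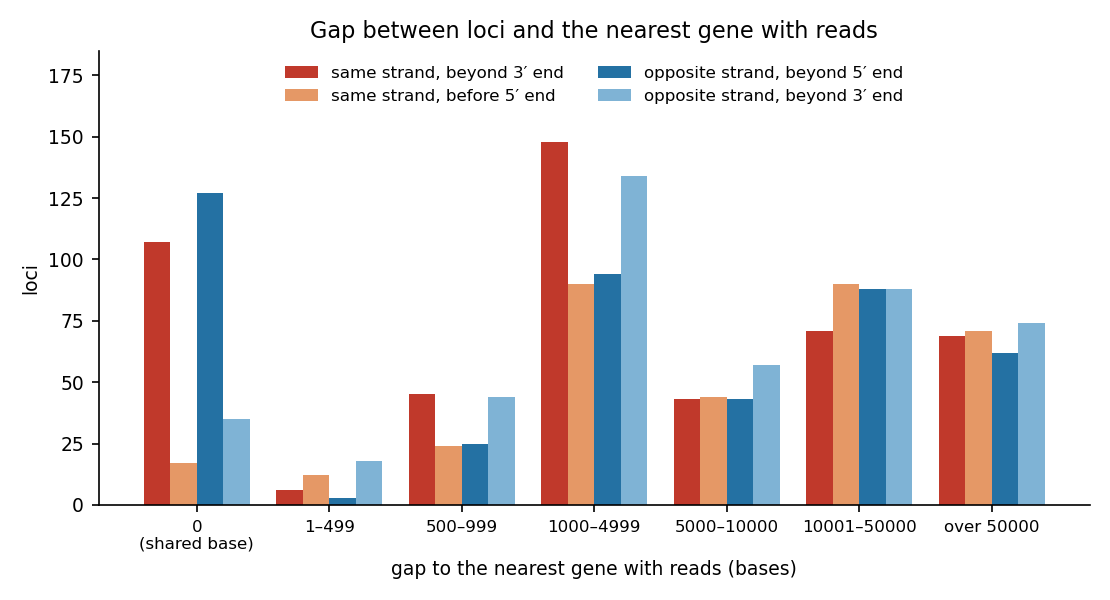
Number of loci (y axis) by the gap in bases to the nearest gene with reads (x axis), for the 4 positions relative to that gene. The bins under 500 bases without contact hold 6 loci beyond the 3′ end and 12 before the 5′ end on the same strand, and 3 divergent and 18 convergent loci, while 107 loci on the same strand beyond the 3′ end and 127 divergent loci share a base with the gene.

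Genes were also grouped by their own reads. A locus beyond the 3′ end on the same strand was found for 2.46% of the 4349 genes with 1 to 4 reads over both libraries, 3.73% of the 2491 genes with at least 100 but under 1000 reads and 14 of the 175 genes with 1000 or more. Divergent loci were found for 61, 86 and 10 of the same genes, the last 2 being 3.45% and 5.71%. Convergent loci were found for 1.70%, 4.05% and 7.43% of these genes, a rise like that at the 3′ end on the same strand. A same-strand locus before the 5′ end was found for 1.24%, 2.41% and 2.29%. The loci themselves were low beside their neighbours, with 90.4% of the 1116 loci within 10 kb at fewer reads than the nearest gene with reads. These counts were raw reads and were not divided by length, so a difference in length between locus and gene was not taken into account. In 40 loci the reads exceeded those of the gene, and 31 of these loci were in both libraries. Each neighbour had at least 1 read by choice, so the 816 loci of 1 read within 10 kb could not exceed it. Nor could such loci be in both libraries, so these counts follow in part from the number of reads.

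Loci on the same strand beyond the 3′ end lay in part in stretches that RefSeq gives to the gene. Of the 349, 135 (38.7%) overlapped a same-strand RefSeq gene and held 63.2% of the reads of this position. In 122 (35.0%) it was the RefSeq extent of the nearest gene itself. Among the 64 that were in both libraries, 38 (59.4%) overlapped the RefSeq extent of the nearest gene. Divergent and convergent loci overlapped a same-strand RefSeq gene in 11.3% and 8.68%. A RefSeq gene on the opposite strand alone was overlapped by 82 of the 292 divergent and 49 of the 288 convergent loci, and by 226 of all 1729. In 70 of the 349 (20.1%, 16.2 to 24.6), exons of deposited models of an annotated gene covered 50% or more of the locus in either library, against 3 of 292 divergent loci (1.03%, 0.350 to 2.98) and 1 of the 613 farther away (0.163%).

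The annotated ends of these genes were searched for a polyadenylation signal. Among protein-coding genes with reads, 78.4% of 13447 (77.7 to 79.1) had AATAAA or ATTAAA in the last 50 bases of the GENCODE transcript that reaches the 3′ end of the gene. Of the 270 that were the nearest gene with reads to a same-strand locus within 10 kb beyond that end, 57.8% (51.8 to 63.5) had it. The share was 39.8% (30.4 to 49.9) of 93 genes whose locus overlapped the RefSeq extent of the gene and 67.0% (59.9 to 73.5) of 179 genes whose locus did not, with 2 genes in both sets. In the printed sequences, the ends of Eef1a2, Dyrk1b, Vash1 and Trdn show neither hexamer in 30 bases, and those of Rtl1, Slit1, Srl, Musk and H19 show AATAAA. These are descriptions with counting intervals, and a match is not evidence that a hexamer was used.

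**Figure D4:**
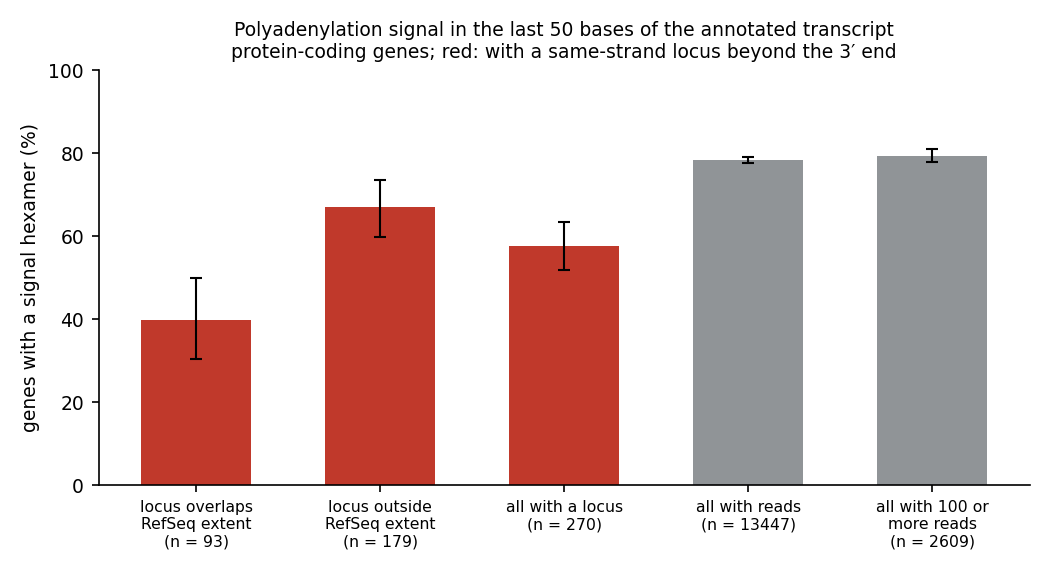
Share of protein-coding genes (y axis, %, bars are 95% Wilson intervals) with a polyadenylation signal hexamer in the last 50 bases of the annotated transcript. Genes with a same-strand locus beyond the 3′ end (red) reach 57.8%, against 78.4% of all genes with reads (grey).

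Named loci of this position sat beyond genes of muscle and of other tissues. Eef1a2 encodes the translation elongation factor of adult muscle and neurons, and its locus at chr2:181141336-181147653 (minus, 6318 bases) had 16 reads in replicate 1 and 5 in replicate 2, beside 237 and 172 reads of the gene. The model of replicate 1 started at the last base of the gene, and that of replicate 2 started 3681 bases farther on, with the same 3′ end. An Eef1a2 model of 2 exons with 2 reads in replicate 1 covered 93.3% of this locus. Beyond Vash1, which encodes a tubulin carboxypeptidase, chr12:86693841-86695685 (plus) had 7 and 9 reads in replicate 1 and replicate 2, while the gene itself had 1 and 0. The locus lay inside the RefSeq extent of Vash1. Beyond Slit1, the gene of a secreted guidance protein, chr19:41589573-41591533 (minus) had 23 and 24 reads in replicate 1 and replicate 2. Its 3′ end was at the same base in both, and Slit1 had 7 and 2 reads. This locus lay 8724 bases from Slit1 and outside its RefSeq extent. RefSeq lists no gene on its strand there and has Lcor on the other strand.

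Beyond Dyrk1b, a kinase gene expressed in muscle, chr7:28189661-28197465 (plus, 7805 bases) had 11 reads in replicate 1 and 5 in replicate 2 and lay inside the RefSeq extent of Dyrk1b. Ppargc1b, a transcriptional coactivator gene of mitochondrial biogenesis, was followed by chr18:61291445-61297163 (minus) with 6 and 7 reads in replicate 1 and replicate 2, also inside its RefSeq extent. Both loci had 3′ ends within 2 bases of each other in the libraries. A Ppargc1b model of 3 exons with 1 read in replicate 1 covered 99.98% of the locus beyond Ppargc1b.

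Processed pseudogenes supplied several of the loci with most reads in this position. Of the 154 same-strand contacts at a 3′ end, 39 were with processed pseudogenes, and these held 227 reads. In the printed sequences each of the 4 pseudogenes ends in a stop triplet. That was the case for 12 of the 23 processed pseudogenes with reads that a locus touched (52.2%, 33.0 to 70.8), near the 54.2% of all 408 with reads. Reads of a pseudogene and of its near-identical parent gene may have been exchanged by the counting, so the counts of these loci are uncertain. At Gm6969, chr12:24638003-24638669 (minus) had 29 reads in replicate 1 and 12 in replicate 2, and the gene had 48 and 59.

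Before the 5′ end on the same strand, the leading locus belonged to Rtl1, a retrotransposon-derived gene of the imprinted Dlk1-Meg3 region. It lay at chr12:109600821-109603246 (minus) with 38 reads in replicate 1 and 20 in replicate 2, 33.2 and 21.2 CPM. A further locus on the same strand lay 5841 bases beyond the 3′ end, at chr12:109581014-109583352, with 53 and 38 reads, 46.3 and 40.3 CPM. Annotated Rtl1 had 4 reads in replicate 1 and 1 in replicate 2, and both loci lay inside the RefSeq extent of Rtl1. On the other strand, Meg3, a noncoding RNA gene with 304 and 98 reads, ended 9288 bases from the locus beyond Rtl1. Rian, also noncoding with 53 and 25 reads, started 694 bases from the locus before Rtl1. The 3′ ends of both loci were the same base in the libraries. Lower levels stood before Dhx40 (10 and 3 reads), an RNA helicase gene, and before Nipbl (6 and 6 reads), the cohesin loader gene, whose locus lay inside the RefSeq extent of Nipbl.

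The promoters of genes with a divergent locus were described from RefSeq. For 207 of the 292 divergent loci it held the nearest gene, some genes with several windows. These 265 windows had a median of 24 CpG dinucleotides and 62.0% G + C, against 19 and 60.3% in 14285 windows of genes with reads and 7 and 52.7% in all 32851. GGGCGG on either strand was in 63.0% of these windows, against 59.7% for genes with reads and 35.7% of all. CCAAT was in 35.8%, against 37.2% and 37.4%, and TATAAA in 5.28%, against 7.65% and 13.6%, also on either strand. Of the 1729 loci, 95 had their 5′ end in a promoter window of a gene on the other strand and 9 in one on their own strand, with some loci in both counts.

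The divergent loci with most reads had few of them. Opposite Qser1, at chr2:104816760-104818678 (plus, 1919 bases), replicate 1 had 7 reads and replicate 2 had 12, while Qser1 had 6 and 4. Its 5′ end was at the GENCODE first base of Qser1 in both libraries. That base lies inside the promoter window printed above, which holds 49 CpG dinucleotides and 5 matches to GGGCGG. RefSeq lists 2310047K21Rik there on the strand of the locus. Opposite Tbc1d22a, chr15:86213774-86214459 (minus) had 9 reads in each library. Both of its ends were the same base in the libraries, and the 5′ end was the GENCODE first base of Tbc1d22a. The printed window of Tbc1d22a holds 33 CpG dinucleotides and none of the 3 motifs searched. Windows are set around gene starts, so for loci that touch the start, a 5′ end inside one is not a separate trait. Opposite Srm, the spermidine synthase gene, chr4:148590385-148590572 (minus, 188 bases) had 4 reads in replicate 1 and 12 in replicate 2. Opposite Sept7, a septin gene, chr9:25251012-25252439 (minus) had 9 reads in replicate 1 and 5 in replicate 2.

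By the GENCODE gene ends, the locus with most reads was convergent. It lay on the minus strand at chr7:28187294-28189072, 1779 bases long, and met the last base of Dyrk1b, which is on the plus strand. It had 371 reads in replicate 1 and 261 in replicate 2, which is 324 and 277 CPM, or 300.5 ± 33.1 CPM (SD, n = 2). Dyrk1b had 182 and 138 reads. The log2 ratio of replicate 1 over replicate 2 was 0.22, and the exact binomial test with Benjamini-Hochberg adjustment gave an adjusted p of 0.255. RefSeq lists no gene on its strand there and extends Dyrk1b, on the other strand, past it to at least chr7:28197465. By RefSeq this locus thus lay opposite Dyrk1b and not beyond its end. No deposited model of another class covered 50% of it in either library. Convergent to Gid8, an E3 ligase subunit gene, chr2:180719391-180723206 (minus, 3816 bases) had 26 and 19 reads in replicate 1 and replicate 2, against 16 and 18 for Gid8. This locus overlapped the RefSeq gene Gm30455 on its strand and the RefSeq extent of Gid8 on the other. Convergent to Luc7l2, a splicing factor gene, chr6:38611120-38613367 (minus) had 5 and 11 reads.

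Among loci over 10 kb from genes with reads, the leading one was short. It lay at chrX:64498785-64498888 on the plus strand, 104 bases, 221789 bases from Slitrk4, with 38 reads in replicate 1 and 19 in replicate 2, 33.2 and 20.2 CPM. Its ends differed by 6 bases at the 5′ side and 1 base at the 3′ side. A further short one, chr15:103619120-103619240 (plus, 121 bases), had 9 and 16 reads in replicate 1 and replicate 2. The locus second in mean CPM among those over 10 kb away, chr4:133096209-133101553 (plus, 5345 bases), 18099 bases beyond the 3′ end of Ahdc1, had 27 and 21 reads. A spliced intergenic model of 3 exons with 1 read in replicate 2 covered 79.5% of it. On the Y chromosome, chrY:67834528-67839304 (minus, 4777 bases) had 6 and 8 reads.

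**Figure D5:**
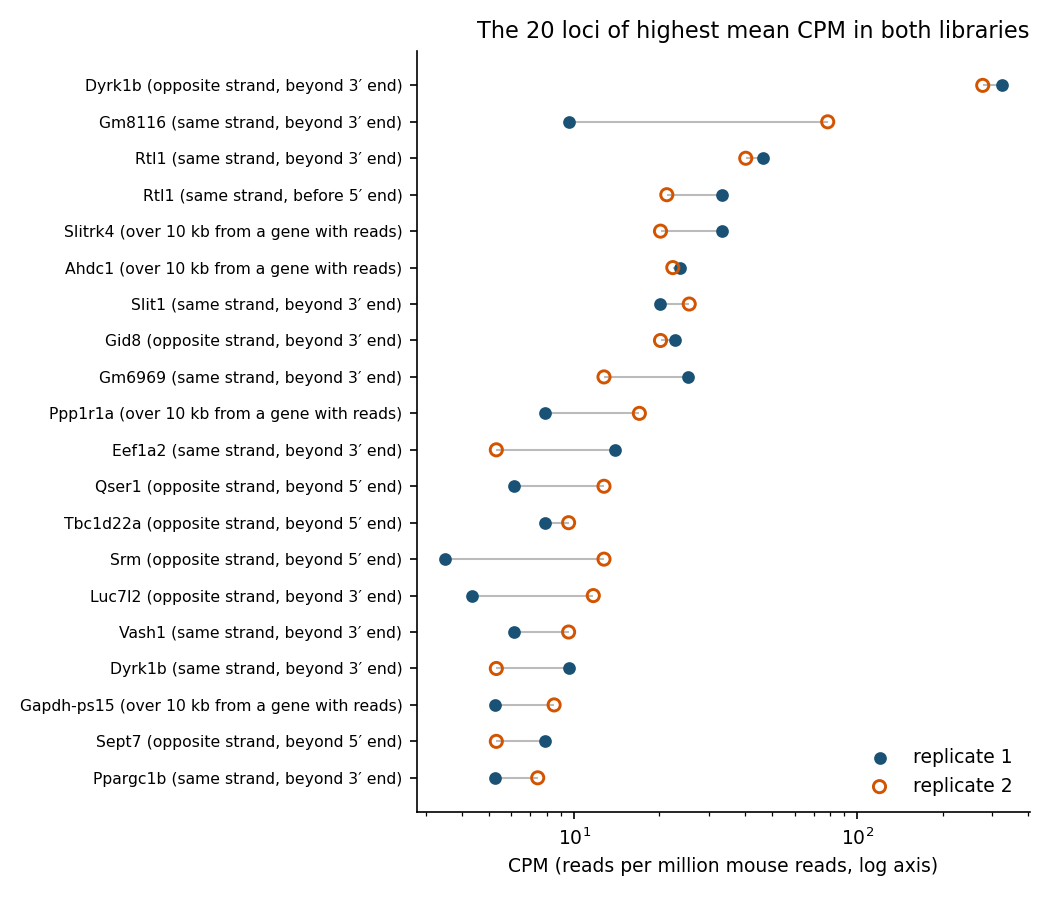
CPM in replicate 1 (filled) and replicate 2 (open) of the 20 loci with the highest mean CPM among those in both libraries, on a log axis, each named by its nearest gene with reads and its position. The locus convergent to Dyrk1b stands at 324 and 277 CPM, and the locus at Gm8116 differs most between the libraries, at 9.60 and 78.6 CPM.

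Between the libraries 3 loci differed, each beyond pseudogenes. The exact two-sided binomial test was run over all genes and unannotated loci with 20 or more reads, and a call needed a Benjamini-Hochberg adjusted p under 0.05 and a 2-fold difference. Of the 13 loci tested 3 were called, against a background of 3.04% of all 7674 features. Of the other unannotated classes, 19 of 133 single-exon antisense (14.3%), 1 of 4 spliced intergenic and 0 of 8 spliced antisense loci were called, the last with 0 also at an unadjusted p under 0.05. The spread between biological replicates is not part of this test, so it compares these libraries and no condition. At Gm8116, chr9:78818588-78820638 (minus) had 11 reads in replicate 1 and 74 in replicate 2 (adjusted p = 1.32e-13 by the exact test, n = 1 library each), 8.18-fold higher in replicate 2. The annotated pseudogene had 76 and 34 reads. The models shared the 3′ end, and the 5′ end of replicate 1 lay 1881 bases inside that of replicate 2. Models of Gm8116 itself covered the locus with 9 reads in replicate 1 and 15 in replicate 2.

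At Got2-ps1, chr5:138363272-138363719 (minus) had 36 reads in replicate 1 and 0 in replicate 2, at least 9.87-fold higher in replicate 1 against a floor of 3 reads (adjusted p = 5.56e-08 by the exact test). In replicate 2, however, a single-exon model of 994 bases in the antisense class, at chr5:138363267-138364260, covered the whole locus with 23 reads. Together the strand had 36 and 23 reads, 31.4 and 24.4 CPM, in replicate 1 and replicate 2. At Gm10182, chr9:22320306-22321105 (minus) had 0 reads in replicate 1 and 21 in replicate 2, at least 8.51-fold higher in replicate 2 (adjusted p = 2.90e-06 by the exact test), and no other model covered it. The annotated pseudogene Gm10182, which this locus touched, went the other way, with 18 reads in replicate 1 and 5 in replicate 2. How reads were divided between pseudogene and locus was not tested. With the reads of covering models of any class added, 2 of 25 loci tested were called.

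Loci were also looked up beside genes of muscle function. A locus within 10 kb lay beside 12 of 42 sarcomere genes (28.6%), 6 of 25 genes of calcium handling and excitation (24.0%), 5 of 32 of energy metabolism (15.6%), 3 of 24 of matrix and tendon (12.5%) and 9 of 25 of development and myogenesis (36.0%). The share was 9.19% of all 15631 genes with reads and 12.8% of the 2666 with 100 or more reads. The lists were not matched to other genes by reads. Of the 175 genes with 1000 or more reads, 8% had a same-strand locus beyond the 3′ end and 2.29% one before the 5′ end. Divergent loci were found for 5.71% of them and convergent loci for 7.43%. In the same order, sarcomere genes stood at 9.52%, 2.38%, 9.52% and 9.52%, and calcium handling genes at 20%, 0%, 4% and 4%. A locus could count for several genes. In the development list 1 locus of 1 read counted for both Myf5 and Myf6, and Meg3 and Rian counted through the loci at Rtl1. The lists were chosen with results of these data known, and no test was made of them.

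Most of these loci had 1 or 2 reads. Beyond Actn2, the α-actinin gene of the Z disc, chr13:12266417-12267576 (minus) had 7 reads in replicate 1 and 6 in replicate 2, 1850 bases from the gene, which had 3211 and 2866 reads. Spliced models of Actn2 with 23 reads in replicate 1 and 3 in replicate 2 ran through it. Beyond Srl, encoding sarcalumenin, a calcium-binding protein of the sarcoplasmic reticulum, chr16:4476258-4478067 (minus) had 0 reads in replicate 1 and 14 in replicate 2. Models of Srl itself covered this locus with 3186 and 1780 reads, so nearly all reads there were counted for the gene.

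Beyond Trdn, the gene of triadin, chr10:33478119-33480380 (plus) had 0 reads in replicate 1 and 6 in replicate 2, while a single-exon antisense model covered it with 14 reads in replicate 1. Beyond Musk, the receptor kinase gene of the neuromuscular junction, chr4:58376731-58377846 (plus) had 0 and 5 reads in replicate 1 and replicate 2, and Musk models covered it with 4 and 2. Beyond H19, an imprinted noncoding RNA gene, chr7:142574503-142575529 (minus) had 5 and 0 reads, beside 4083 and 2765 of H19. Convergent to Slc25a4, the mitochondrial ADP/ATP carrier gene, chr8:46201288-46203993 (plus) had 5 and 4 reads, beside 9532 and 10669 of Slc25a4. Before Myod1, the myogenic regulator gene, chr7:46371465-46371664 (plus) had 3 and 1 reads. None of the loci given here beside Actn2, Srl, Trdn, Musk, H19, Slc25a4 and Myod1 reached the 20 reads needed for the test. The loci at Rtl1, which count beside Meg3 and Rian, reached it and were not called.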

How the data were processed

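Long-read RNA-seq of 2 libraries was analysed. The deposited values are counts of raw reads per transcript model, listed by the authors for models with 1 or more read and not normalized. Per the file headers and labels, they refer to mm10 and GENCODE M21 with TALON attributes. The aligner was not given in the sources used here. Members, lists and named loci were chosen with earlier results of these data known.

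Loci were merged models sharing 1 base. CPM was reads per 1000000 mouse reads. Gene ends came from GENCODE M21, and RefSeq extents (GRCm38.p6) had a strand for 44351 of 49997 genes. Named loci were the 20 of highest mean CPM in both libraries, the 3 highest of each position, those called, the longest, and 8 beside listed genes; Myod1 was added after its values were seen. Tests ran in Python 3.11.15 with scipy 1.17.1, numpy 2.4.6 and pandas 2.3.3, and figures in matplotlib 3.10.9. In R 4.3.3, TMM scaling from edgeR 4.0.16 moved the log2 ratio by -0.01, and size factors from DESeq2 1.42.0 moved it by 0.05. The exact binomial test was tried on simulated counts that held counting error and no spread between replicates. Fisher's exact test was not tried so. With no genome sequence used here, ends of annotated transcripts beside named loci are printed, picked after values were seen. Signals at annotated transcript ends and the cover by other classes were added after the data were seen.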

Additional observations from a re-analysis of the deposited data

Results flagged for a closer look

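Loci on contigs without a place in the chromosomes were not among the members. One of them, on the minus strand of the unplaced contig GL456382, had 12 reads in replicate 1 and 11 in replicate 2, 23 in all, which is above the limit of 3 reads that a count of 0 allows. It was 105 bases long.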

How the results depend on the processing

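Of 61 alternatives, 22 left the results within their limits and 39 moved them outside. The number of loci was 395, 99 and 13 with at least 2, 5 and 20 reads, and 870 to 1092 with 1 library left out. The share in both libraries was 56.5% and 62.6% for loci with 2 or more reads in replicate 1 and replicate 2, 81.3% and 75% with 5 or more, and 18.9% with models of any class. The class made up 10.5% of reads of unannotated models, and 0.159% of mouse reads without the locus of most reads. Of the loci, 5 were called with a read minimum of 5, the further ones being those at Srl and opposite Dnmt3a (0 and 9 reads), 5 with no minimum, and 0 of 1 with a minimum of 100. Within 5 kb and 50 kb of a gene with reads lay 53.7% and 84.0%. Within 10 kb it was 56.2% and 44.0% for genes with 5 and 20 reads, 79.1% for all annotated genes, 75.9% for loci with 2 or more reads and 76.4% for loci in both libraries. Beyond the 3′ end on the same strand lay 17.7% (5 kb), 24.3% (50 kb), 16.3% and 12.5% (genes with 5 and 20 reads), 25.8% (all annotated genes), 27.3% (loci with 2 or more reads), 27.5% (in both libraries) and 16.7% (sharing no base with a gene). Divergent loci made up 14.4% (5 kb), 22.0% (50 kb), 21.01% (2 or more reads), 20.6% (in both libraries) and 11.5% (sharing no base with a gene). The median length was 1779 bases for loci in both libraries, 1845 with 5 or more reads, 1507 for loci of 200 bases or more, and 941.5 to 1235.5 with 1 library left out. The causes of these shifts were not tested, except that windows, minima and gene sets change the counts by construction. The checks of A-rich stretches and polyadenylation signals at the 3′ ends of the loci were not run, since no genome sequence was used here. No paired analysis was possible because both libraries form 1 group. With 2 libraries and 77.2% of loci at 1 read, depth limits every statement on single loci.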
